A study of Mus musculus with 6 samples.

Results

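The 143 genes described here are the expressed long intergenic noncoding RNAs (lincRNAs) of mouse lung fibroblasts. They were selected on biotype and read number: genes with the biotype lincRNA in the deposited count table whose raw counts summed to at least 200 over the 6 libraries, with the well-studied H19 and Meg3 left out. The table lists 55487 genes, of which 5629 are lincRNAs. Of these, 3893 had no read in any library and 1591 summed to between 1 read and the minimum. The cells were wild-type lung fibroblasts in primary culture, taken from C57BL/6 mice and starved in 0.1% serum during 24 h. One group then received PBS and the other rmCIRBP at 1 µg/mL, each during 24 h. The name rmCIRBP stands for recombinant mouse CIRBP, the cold-inducible RNA-binding protein, which acts as a danger signal when it leaves the cell. Each group had 3 libraries of polyA-selected RNA, and the labels do not say whether they came from separate animals or cultures, so p-values measure the spread between these libraries, which may be technical.

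A lincRNA is a long transcript without a recognised open reading frame that is annotated between protein-coding genes. Some act as scaffolds of nuclear bodies, some carry microRNAs or small nucleolar RNAs in their exons or introns, and for others the act of transcription affects a nearby gene. Several are known as targets of inflammatory or p53 signalling, and most have no known function. Of the 143, 114 carry only a provisional name (Gm or Rik).

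The summed count chose the members, so their level is a description and not a finding. The members just inside the minimum were Gm20939 with 201 reads and Gm9801 with 205, and the lincRNAs just outside were Gm36445 with 196 and Gm38948 with 195. For 22 members 2 times the reads of the lower group would have stayed under the minimum, so that they entered through the group in which they were higher. Of these, 6 were called higher after rmCIRBP, 1 was called lower and 15 were not called. Ptgs2os2, Mir155hg, Gm16548, G930009F23Rik, 1200007C13Rik and Gm48283 are the 6, and Gm50475 is the 1 called lower. Counts over the members are therefore given as descriptions.

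Libraries held 12105584 to 14262375 gene-assigned reads, and a count of 0 allows up to 3 reads, or 0.210 to 0.248 CPM. The unit CPM is the number of reads scaled to 1000000 reads of the library. Such limits cover counting error only. The 9 fibroblast markers summed to 24208 to 29109 CPM in PBS and 19779 to 26518 CPM in rmCIRBP libraries, whereas the 8 epithelial markers stayed under 0.491 CPM with Nkx2-1 and Krt8 at 0. The 7 endothelial markers summed to 19.2 to 27.4 CPM in PBS and 5.89 to 8.19 CPM after rmCIRBP. Neutrophil markers (8) summed to at most 0.246 CPM in PBS and 1.21 to 1.68 CPM after rmCIRBP, with Elane, Ly6g, Retnlg, Cxcr2 and S100a9 at 0, and mesothelial markers (6) to 10.6 to 16.5 and 3.71 to 10.1 CPM. Macrophage markers (9) summed to 122 to 162 and 129 to 172 CPM, with 3 called higher and 1 lower. Of the fibroblast markers 1 was called higher and 1 lower, of the endothelial markers 2 lower and of the mesothelial markers 1 lower. Of the smooth muscle, neutrophil and epithelial markers 0 were called. Over all genes tested 6.74% were called higher and 4.77% lower, and nothing is read from these small counts. On the second principal component of log2 CPM, PBS 1 (28.6) and rmCIRBP 2 (38.8) lay on one side and the other 4 on the other (-36.6 to -6.34). The smooth muscle marker sum was highest in rmCIRBP 2 (9956 CPM), followed by PBS 1 (5229) and rmCIRBP 1 (4588), with 1909 to 2760 CPM in the other 3. Among the rmCIRBP libraries rmCIRBP 2 was the lowest for 68 members (47.6%), against 39.2% of all genes tested. The part of these markers in the results was not tested. In bulk RNA, fewer cells of a type and less RNA per cell cannot be told apart.

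All 143 members passed the filter on low counts. By edgeR's quasi-likelihood test, 22 members (15.4%) differed between rmCIRBP and PBS at an adjusted p under 0.05, against 11.5% of the 15801 genes tested. Of these, 11 were higher and 11 were lower (7.69% each), against 6.74% and 4.77% of all genes. Protein-coding genes with the same minimum sum were called at 12.9% (7.59% higher, 5.27% lower) and antisense genes at 10.2% (5.55% and 4.67%). The groups did not overlap for 53 members (37.1%), against 34.8% of all genes, and all 22 called members were among the 53. The members' median log2 fold change was -0.11 and that of all genes was -0.0080. Under upper quartile scaling, 925 genes were called higher and 1022 lower, against 1065 and 753 here, and the members gave 10 and 14.

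**Figure D1:**
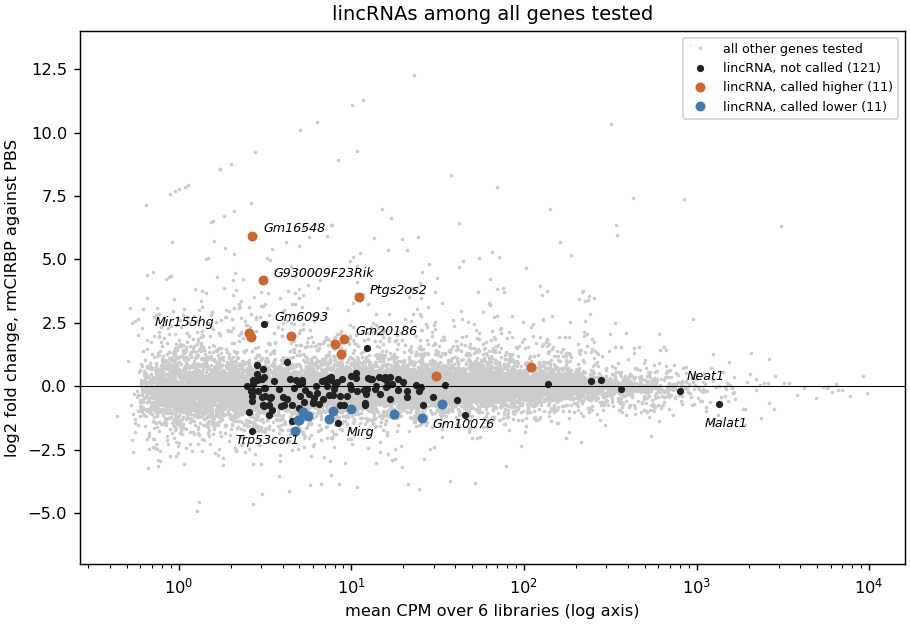
Log2 fold change of rmCIRBP against PBS (vertical axis) by mean CPM over 6 libraries (horizontal axis, log scale) for all genes tested (grey) and the 143 lincRNAs (black where not called, orange where called higher, blue where called lower). All called lincRNAs but Gm28592 lay at a mean under 100 CPM, and Malat1 and Neat1, the 2 with the most reads, were not called.

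The 2 members with the most reads are RNAs of nuclear bodies. Malat1, on chromosome 19 (5795690-5802672, minus strand, GRCm38), is retained in nuclear speckles. Its level was 1553, 1593 and 1924 CPM in PBS 1, 2 and 3, and 1209.9, 723 and 1139 CPM in rmCIRBP 1, 2 and 3. The groups did not overlap and rmCIRBP 2 was the lowest library. The log2 fold change was -0.69 ± 0.21 (SE), with an adjusted p of 0.0757 that missed the threshold. DESeq2 placed the same value past it, with an adjusted p of 0.0134. Malat1 shares 453 exon bases with Gm37376 on the opposite strand, which fell by 0.75 on the log2 scale with an adjusted p of 0.0295.

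Neat1, the RNA core of paraspeckles, is the neighbour of Malat1 on the same strand (5824708-5845478). It was at 869, 895 and 802 CPM in PBS and at 788, 540.4 and 888 CPM in rmCIRBP libraries. These ranges overlapped, and rmCIRBP 2 was the lowest library. The log2 fold change was -0.18 ± 0.19 with an adjusted p of 0.587, and without rmCIRBP 2 it was 0.0098. Counts are per gene from polyA-selected RNA, so forms of Neat1 were not told apart and paraspeckles were not measured. Of 18 proteins of the paraspeckle, 1 was called, and it was higher, where 11.5% of all genes were called. Pspc1, a core paraspeckle protein, was at 15.9, 10.8 and 14.7 CPM in PBS and at 24.1, 21.8 and 23.5 CPM after rmCIRBP, with a log2 fold change of 0.77 and an adjusted p of 0.0269.

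2900097C17Rik, the mouse Norad gene, whose cytoplasmic RNA binds Pumilio proteins, was at 229 ± 8.19 CPM (SD, n = 3) in PBS and 260.1 ± 19.7 CPM after rmCIRBP. Its log2 fold change of 0.22 ± 0.11 had an adjusted p of 0.239. Oip5os1 (Cyrano), known for directing the decay of a microRNA, was at 135 ± 1.44 and 141 ± 14.4 CPM, a log2 fold change of 0.09 ± 0.11. The 2 groups overlapped for Oip5os1 and did not for 2900097C17Rik.

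Reads were spread unevenly over the members. Malat1 alone held 29.6% of them, the 5 largest held 66.4% and the 10 largest 74.5%. Only 7 members had a mean over 100 CPM and 94 were under 10 CPM, with a median of 7.38 CPM against 33.6 CPM for coding genes of the same minimum sum. Per kilobase of exon the members' median was 3.00 RPKM and that of the coding genes was 7.18 RPKM, the median exon lengths being 2466.5 and 4664 bases. The highest level per length was that of Gm29233, at 1355 RPKM in PBS, ahead of Malat1 at 242. Gm29233 has 281 exon bases, and 208 of them lie on the opposite strand of an exon of Thbs1, the gene of the matrix protein thrombospondin 1. The members together took 0.484% to 0.521% of the reads in PBS and 0.365% to 0.450% in rmCIRBP libraries. Without Malat1 and Neat1 the share was 0.242% to 0.248% and 0.230% to 0.250%.

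**Figure D2:**
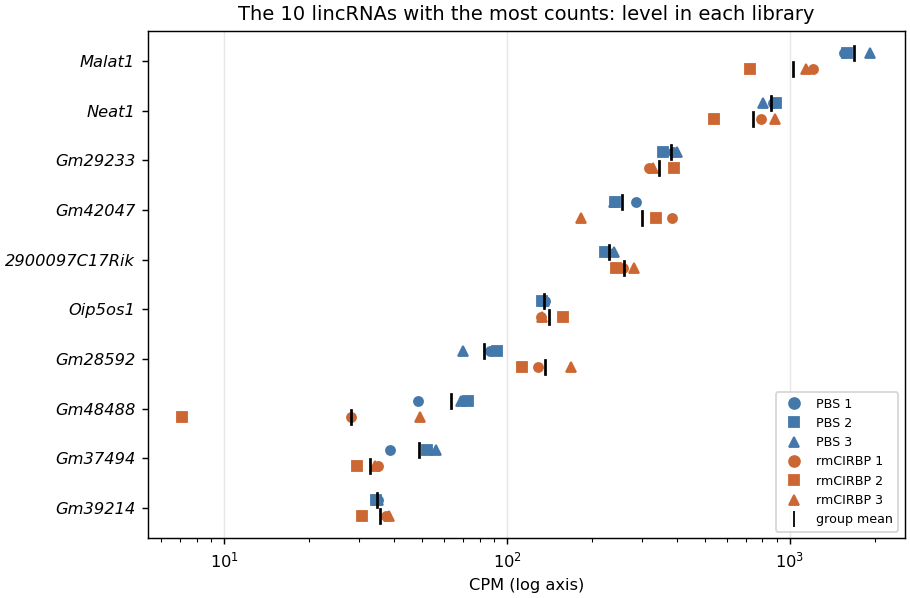
CPM (horizontal axis, log scale) in each of the 6 libraries for the 10 lincRNAs with the most reads, PBS in blue and rmCIRBP in orange, with the group mean as a black bar. The rmCIRBP 2 library (orange square) is the lowest of its group for 7 of the 10, among them Gm48488 at 7.11 CPM, and Gm28592 was the single one of the 10 that was called.

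The remaining abundant members were Gm42047, Gm28592, Gm48488, Gm37494 and Gm39214. Gm42047 was at 239 to 285 CPM in PBS and 183 to 382 CPM after rmCIRBP (log2 fold change 0.26, adjusted p 0.526). Gm48488 shares 589 exon bases with Gas1, a growth arrest gene on the opposite strand, and the pair had log2 fold changes of -1.13 and -1.27 with adjusted p of 0.217 and 0.201. Gm37494 was at 38.7, 52.1 and 56.2 CPM in PBS and 35.0, 29.4 and 34.0 CPM after rmCIRBP, with no overlap, and its log2 fold change of -0.54 ± 0.15 just missed the threshold (adjusted p 0.0547). Gm39214 was at 34.3 to 35.1 CPM in PBS and 30.8 to 38.1 CPM after rmCIRBP.

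Among 25 lincRNAs listed from general knowledge for inflammation or p53, 6 were members. Of these, 3 were called higher and 1 lower, where 6.74% and 4.77% of all genes were. Ptgs2os2 and Mir155hg are among the members that reached the minimum through their rmCIRBP libraries, so nothing is read from this count. Ptgs2os2, also known as lincRNA-Cox2, is a lincRNA induced by Toll-like receptor ligands in macrophages. It lies on chromosome 1 (150159043-150164948, minus strand) and has 2 exons. Its level was 1.89, 1.73 and 1.82 CPM in PBS and 21.3, 15.3 and 24.1 CPM after rmCIRBP. The SD over the PBS libraries was 0.0776 CPM, and every rmCIRBP library lay far above them. The log2 fold change was 3.50 ± 0.24 with an adjusted p of 0.000156, and the call held with each library left out in turn. Because Ptgs2os2 entered through the group in which it was high, its values are given as a description. Ptgs2, the gene of cyclooxygenase 2, is the nearest coding gene at 50.8 kb, and the 2 genes are transcribed toward each other. Ptgs2 was at 180, 74.9 and 120 CPM in PBS and at 543, 401 and 572 CPM after rmCIRBP, a log2 fold change of 2.04 with an adjusted p of 0.00663.

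The RefSeq promoter table gave 300-base windows, from 250 bases before to 50 after the start, for 70 members. Windows of Ptgs2os2 and Dubr are shown because these are the called increases whose RefSeq start is also that of the count table. Capitals mark matches, on either strand, to the interferon-stimulated response letters (GAAA, any 2 bases, GAAA) and to the STAT letters (TTCNNNGAA).
Ptgs2os2, GRCm38.p6 chr1:150164899-150165198, minus strand: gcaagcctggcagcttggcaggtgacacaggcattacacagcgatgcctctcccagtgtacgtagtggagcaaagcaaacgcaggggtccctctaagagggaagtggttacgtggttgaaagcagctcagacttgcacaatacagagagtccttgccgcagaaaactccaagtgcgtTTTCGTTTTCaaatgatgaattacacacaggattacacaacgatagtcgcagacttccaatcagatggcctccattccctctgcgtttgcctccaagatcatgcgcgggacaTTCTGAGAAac
Dubr, GRCm38.p6 chr16:50732724-50733023, minus strand: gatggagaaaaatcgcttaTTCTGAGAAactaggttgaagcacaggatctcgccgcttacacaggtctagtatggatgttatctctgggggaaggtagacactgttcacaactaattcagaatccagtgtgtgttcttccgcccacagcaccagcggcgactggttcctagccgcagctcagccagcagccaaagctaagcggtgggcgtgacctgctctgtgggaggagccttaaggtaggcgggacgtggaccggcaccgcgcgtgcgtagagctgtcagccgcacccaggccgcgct
The Ptgs2os2 window holds TTTCGTTTTC, a match on the strand opposite to transcription whose first printed base is 73 bases before the start. It also holds TTCTGAGAA from base 40 of the transcript, and Dubr holds the same 9 letters from 231 bases before its start. The other called increases with a window were AU020206 and Mir155hg, whose RefSeq starts lie 21 and 9856 bases from those of the count table. Their windows held no match to any motif searched. Over all 32851 promoter windows 3.44% match the interferon-stimulated response letters and 8.30% match TTCNNNGAA, against 4 and 3 of the 81 members' windows. TGANTCA (AP-1) was in 7.81% of all windows and in 8 of the members', kappaB in 4.51% and in 1, and CArG in 1.63% and in 2. A match describes letters and is not evidence of binding.

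Mir155hg, on chromosome 16 (84703167-84715245, plus strand), is the precursor of miR-155, a microRNA of activated immune cells. Its level was 1.07, 1.40 and 0.491 CPM in PBS and 4.97, 3.95 and 3.36 CPM after rmCIRBP. The groups did not overlap, and PBS 2 and rmCIRBP 3 came closest. The log2 fold change was 2.09 ± 0.40 with an adjusted p of 0.0153, and without rmCIRBP 1 the adjusted p was 0.0669. Mir155hg also reached the minimum through its rmCIRBP libraries, so its values are given as a description. The 2 mature arms are given in RefSeq as follows, 5′ to 3′, with the seed (bases 2 to 8) in capitals.
miR-155-5p: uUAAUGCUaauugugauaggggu
miR-155-3p: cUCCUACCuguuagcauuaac
PolyA-selected reads count the precursor transcript, and the mature microRNA was not measured. The nearest coding gene, Mrpl39 at 2.33 kb, had a log2 fold change of 0.08 (adjusted p 0.72).

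Gm20186, on chromosome 6 (18845910-18848207, minus strand), was at 3.61, 4.21 and 4.07 CPM in PBS and at 15.8, 14.1 and 12.9 CPM after rmCIRBP. Both groups were narrow and far apart, with a log2 fold change of 1.88 ± 0.17 and an adjusted p of 0.000687, and the call held with each library left out. Its start lies 372 bases from that of Lsm8, a gene of the U6 small nuclear RNA-binding complex that is transcribed the other way. Lsm8 had a log2 fold change of 0.58 with an adjusted p of 0.165. Gm12840 matches 85.2% of the Gm20186 transcript at 97.5% identity, and it was assigned 1 read in all over the 6 libraries. How reads that fit both genes were counted is not given in the sources used here, so the split between the 2 genes remains uncertain.

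Trp53cor1 (lincRNA-p21), a p53 target, moved the other way. It was at 8.22, 11.2 and 12.6 CPM in PBS and at 5.48, 4.38 and 2.86 CPM after rmCIRBP, without overlap. The log2 fold change was -1.30 ± 0.27 with an adjusted p of 0.0226, lost without PBS 2 or PBS 3 (0.0899 and 0.0897). Its start lies 11.8 kb from that of Cdkn1a, the gene of the cell cycle inhibitor p21, which had a log2 fold change of 0.04 and an adjusted p of 0.884. Trp53cor1 shares 1645 exon bases with another member, Gm41556 on the opposite strand, which had a log2 fold change of -1.31 (adjusted p 0.0273, and 0.0542 to 0.104 without PBS 2, PBS 3, rmCIRBP 2 or rmCIRBP 3). Reads of the 2 genes cannot be told apart where they share bases. The members of the list that were not called were Morrbid, a lincRNA of myeloid survival (0.38, adjusted p 0.515), and Pvt1, the neighbour of Myc (-0.03, adjusted p 0.896).

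**Figure D3:**
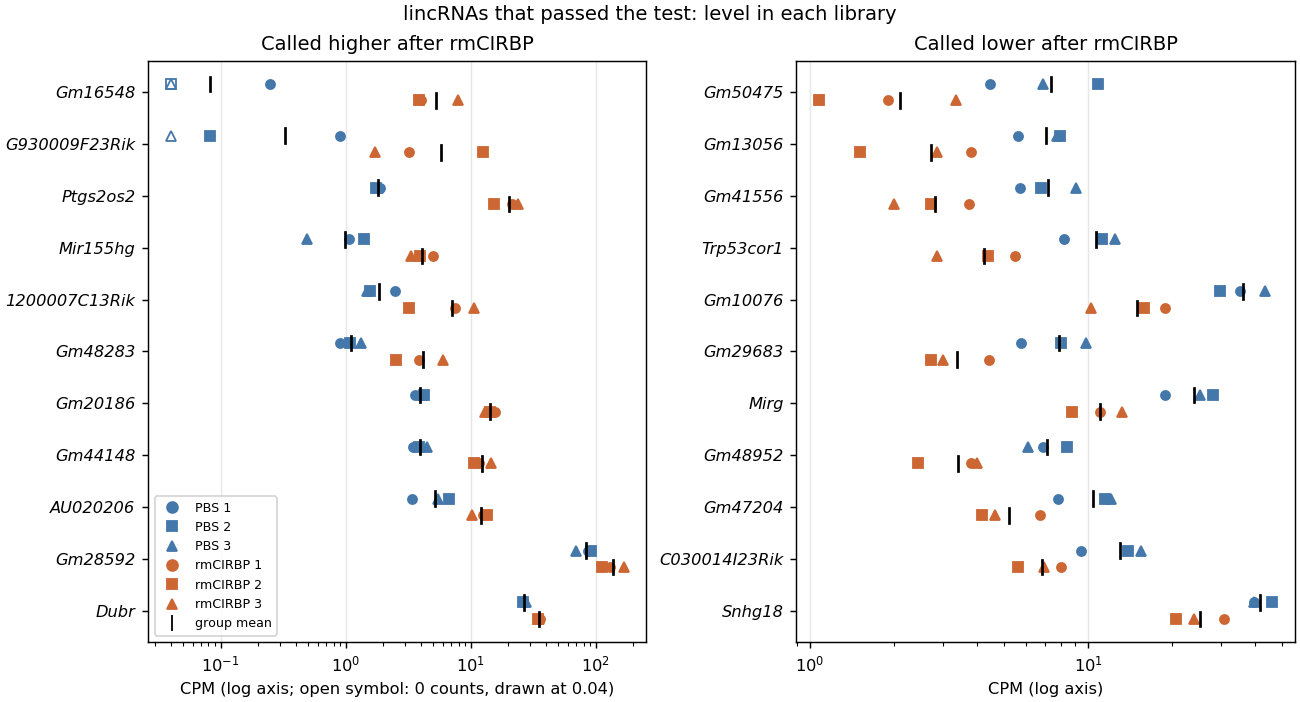
CPM (horizontal axis, log scale) in each library for the 11 lincRNAs called higher (left) and the 11 called lower (right) after rmCIRBP, PBS in blue and rmCIRBP in orange, with the group mean as a black bar and libraries with no read drawn as open symbols at 0.04. The groups are apart in all 22, and the gap is wide for Ptgs2os2 and Gm20186 and small for Gm47204 and C030014I23Rik.

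The largest fitted change was that of Gm16548, on chromosome 1 (164148591-164152217). It had 3, 0 and 0 reads in PBS and 55, 54 and 110 reads in rmCIRBP libraries. Gm16548 thus reached the minimum only through the group in which it was high, and its values are given as a description. The ratio of its summed levels was 67.6 with a 95% counting interval from 22.8 to 330, and the adjusted p was 0.00335. Gm16548 shares 438 exon bases with Selp, the gene of P-selectin, which lies on the opposite strand and had a log2 fold change of 5.83 (adjusted p 0.000806).

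G930009F23Rik, on chromosome 15, was uneven within groups. It was at 0.904, 0.0826 and 0 CPM in PBS and at 3.22, 12.6 and 1.71 CPM after rmCIRBP, where rmCIRBP 2 stood far above the others. With 12 reads in PBS and 243 after rmCIRBP, G930009F23Rik also reached the minimum through its rmCIRBP libraries. The ratio of summed levels, a description, was 18.8 with a 95% counting interval of 10.5 to 36.8. The adjusted p was 0.0481, and it was 0.0833 to 0.163 without PBS 2, PBS 3, rmCIRBP 1 or rmCIRBP 2.

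The other called increases were 1200007C13Rik, Gm48283, Gm44148, AU020206, Gm28592 and Dubr. 1200007C13Rik rose from 1.84 to 7.11 CPM (log2 fold change 1.99, adjusted p 0.032, and 0.0709 to 0.123 without PBS 2, PBS 3, rmCIRBP 1 or rmCIRBP 3). 1200007C13Rik also reached the minimum through its rmCIRBP libraries, so its values are given as a description. Its nearest coding gene, the phosphatase gene Ptpn1 at 98.4 kb, was also higher (0.68, adjusted p 0.0363). AU020206 was at 3.37, 6.69 and 5.47 CPM in PBS and at 12.6, 13.6 and 10.2 CPM after rmCIRBP, with a log2 fold change of 1.26 ± 0.26 and an adjusted p of 0.0199, which was 0.0712 without PBS 3 and 0.073 without rmCIRBP 1. Dubr, a lincRNA known from muscle cells, had the smallest called change and the narrowest groups. It was at 26.4, 26.4 and 27.6 CPM in PBS and at 35.8, 34.3 and 35.0 CPM after rmCIRBP, a log2 fold change of 0.42 ± 0.10 with an adjusted p of 0.0333, which was over 0.05 with any library but PBS 1 left out and under upper quartile scaling (0.055).

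Gm44148, Gm48283 and Gm28592 lie across exons of coding genes on the opposite strand, and each moved with its partner. Gm44148 was at 3.45, 3.88 and 4.49 CPM in PBS and at 11.6, 10.7 and 14.4 CPM after rmCIRBP (log2 fold change 1.66 ± 0.21, adjusted p 0.00259). It shares 124 exon bases with Usp18, an interferon-stimulated protease gene, which had a log2 fold change of 1.48 (adjusted p 0.0029). Gm48283 (1.93, adjusted p 0.0203) shares 897 exon bases with Gng2, a G protein subunit gene (1.77, adjusted p 0.0227). Gm48283 reached the minimum through its rmCIRBP libraries, so its values are given as a description. Gm28592 (0.75, adjusted p 0.0361) has 741 exon bases, of which 727 lie across Phlda1 (0.75, adjusted p 0.0394). The call on Gm44148 held without any 1 library. That on Gm48283 was lost without PBS 2, PBS 3 or rmCIRBP 1 (0.0619 to 0.085), and that on Gm28592 without PBS 2, PBS 3, rmCIRBP 1 or rmCIRBP 3 (0.0674 to 0.123).

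Among the decreases, Mirg carries a microRNA cluster of the imprinted Dlk1-Dio3 region. It lies on chromosome 12 (109729764-109749460, plus strand) and was at 18.9, 28.3 and 25.2 CPM in PBS and at 11, 8.76 and 13.3 CPM after rmCIRBP. The groups did not overlap, and the log2 fold change was -1.09 ± 0.21 with an adjusted p of 0.0154. Without PBS 2, PBS 3 or rmCIRBP 1 the adjusted p was 0.0707, 0.0599 or 0.0647. Rian, another noncoding RNA of the same region that is not among the 143 and was named after its values were seen, was at 694, 768 and 762 CPM in PBS and 391, 306 and 428 CPM after rmCIRBP (log2 fold change -0.95, adjusted p 0.00782).

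In the annotation, 16 members hold a small RNA gene on their own strand, of which 9 hold microRNAs (35 genes) and 7 hold small nucleolar or Cajal body RNAs. Both kinds occur in 2 of them, Snhg20 and 2900076A07Rik, and 2 others, B020010K11Rik and Gm10874, hold only a small nuclear RNA. Of the 16, Mir155hg was called higher, and Mirg and Snhg18 were called lower. Over all genes 6.74% were called higher and 4.77% lower, and nothing is read from so small a count. Mirg holds 14 microRNA genes with 26 mature sequences in RefSeq, and A230057D06Rik, the host of the miR-344 family, holds 11. The following microRNAs share a seed within or between hosts, with the seed in capitals, and are printed to show which hosts carry the same seed.
miR-453 (Mirg): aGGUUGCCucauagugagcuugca
miR-496a-5p (Mirg): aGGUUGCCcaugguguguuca
miR-410-3p (Mirg): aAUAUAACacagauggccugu
miR-344d-3p (A230057D06Rik): gAUAUAACcacugccagacuga
miR-344e-3p (A230057D06Rik): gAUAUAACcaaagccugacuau
let-7a-5p (6720427I07Rik): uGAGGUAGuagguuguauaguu
let-7d-5p (6720427I07Rik): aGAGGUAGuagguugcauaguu
let-7f-5p (6720427I07Rik): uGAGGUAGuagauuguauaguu
The miR-410-3p seed in Mirg is thus also that of miR-344d-3p and miR-344e-3p. A230057D06Rik, named after its values were seen, was at 7.23 to 19.7 CPM in PBS and at 2.44 to 5.86 CPM after rmCIRBP, with no overlap, a log2 fold change of -1.44 ± 0.43 and an adjusted p of 0.0711. The let-7 host 6720427I07Rik was at 3.72 to 7.19 and 3.45 to 5.21 CPM (log2 fold change -0.37, adjusted p 0.465).

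Snhg18, the host of a small nucleolar RNA on chromosome 15 (32240565-32244662, minus strand), was at 39.4, 45.8 and 39.5 CPM in PBS and at 30.9, 20.8 and 24.0 CPM after rmCIRBP. The log2 fold change was -0.69 ± 0.16 with an adjusted p of 0.0307, and leaving out PBS 2, PBS 3 or rmCIRBP 3 gave 0.122, 0.0782 or 0.0752. Sema5a, a semaphorin gene that starts 148 bases away on the other strand, was at 86.3, 130 and 132 CPM in PBS and at 36.8, 18.5 and 64.3 CPM after rmCIRBP (log2 fold change -1.50, adjusted p 0.0485). The other 4 members on the list of 19 small nucleolar RNA hosts, among them Snhg12 (-0.41) and Snhg15 (0.25), were not called. Over all genes 11.5% were called.

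Gm10076 was at 35.1, 29.9 and 43.3 CPM in PBS and at 18.9, 15.9 and 10.3 CPM after rmCIRBP, a log2 fold change of -1.23 ± 0.23 with an adjusted p of 0.0142, which was 0.0582 without PBS 3. Its single exon of 384 bases is 99.5% identical to Rpl41, a ribosomal protein gene, over the whole transcript. Rpl41 was at 556 to 835 CPM in PBS and 452 to 569 CPM after rmCIRBP (log2 fold change -0.41, adjusted p 0.165). How reads that fit both genes were counted is not given in the sources used here, so the level of Gm10076 is uncertain.

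The other called decreases were of low level, with means of 7.08 to 13 CPM in PBS. Gm50475 had the largest, from 4.44, 10.8 and 6.87 CPM in PBS to 1.90, 1.08 and 3.36 CPM after rmCIRBP (log2 fold change -1.76 ± 0.46, adjusted p 0.0476). Gm50475 reached the minimum through its PBS libraries, so its values are given as a description. It overlaps Tmem200b on the opposite strand, which had a log2 fold change of -1.50 and an adjusted p of 0.0538. Gm13056 (-1.34, adjusted p 0.042) and Gm29683 (-1.19, adjusted p 0.0333) lie 20.9 kb from Arhgef19 and 14.1 kb from the nuclear receptor gene Nr2f2, whose log2 fold changes were -0.13 and 0.05. Gm47204 (-0.98, adjusted p 0.0456) and C030014I23Rik (-0.89, adjusted p 0.0449) share 1806 exon bases with each other. Gm13056, Gm29683, Gm47204 and C030014I23Rik each lost the call without any 1 library other than PBS 1, at adjusted p from 0.0519 to 0.156, and Gm50475 without PBS 2, PBS 3, rmCIRBP 1 or rmCIRBP 2 (0.0792 to 0.166). Gm48952 (-1.03, adjusted p 0.0441) shares 132 exon bases with the pseudokinase gene Nrbp2 (-0.81, adjusted p 0.0346). The call on Gm48952 was lost whichever of the 6 libraries was left out (0.0587 to 0.154).

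Sharing of exon bases with another gene was common. By the GENCODE M21 exons, 62 members share bases with another gene, 57 of them on the opposite strand, and Gm50475 has no exon model in that release. The strand setting of the counting is not given in the sources used here, and without it reads of the 2 genes cannot be told apart. Of the 9 called members in this set, 4 were higher and 5 lower, and for all 9 the other gene was called in the same direction. The 9 lie at 7 loci, since 4 of them are 2 pairs of members that share bases with each other (Trp53cor1 with Gm41556, Gm47204 with C030014I23Rik). Of the 53 that were not called, 1 had a called partner (Malat1, with Gm37376). Over the 54 pairs in which both genes were tested, Pearson's r between the log2 fold changes was 0.977, a description across genes that share exon bases and libraries. Members that share bases with each other, such as Trp53cor1 with Gm41556, enter this r once from each side, so the pairs are not all distinct. Gm16548 lies far from the rest, and without it r was 0.938 over 53 pairs. A near copy was found for 14 members, 3 of which also share exon bases, and Gm20186 and Gm10076 were the called ones. The 69 members with neither a shared exon base nor a near copy gave 6 calls higher and 4 lower (14.5% in all, against 11.5% of all genes).

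Nearby coding genes were compared next. Within 100 kb, 130 members had a tested coding neighbour, and 19 of these were called. The nearest coding gene was called in the same direction for 8 of the 19 (42.1%). For coding genes of the same minimum sum, the nearest coding gene was called in the same direction for 251 of 1309 (19.2%). Of the 8, 5 share exon bases with that neighbour. The other 3 were Ptgs2os2 with Ptgs2, 1200007C13Rik with Ptpn1 and Snhg18 with Sema5a, out of 10 called members within 100 kb without shared exons. These pairs are of another kind than those sharing exons, and the difference between the 2 sets was not tested. Some of the 8, among them Ptgs2os2 and 1200007C13Rik, reached the minimum through their rmCIRBP libraries, so these counts are descriptions. Pearson's r with the neighbour was 0.53 over the 72 members without shared exons and 0.61 over all 130. Both sets include Ptgs2os2 with Ptgs2, and the 130 include Gm16548 with Selp, pairs with large changes. An r without these pairs, or for coding genes and their own neighbours, was not computed. Starts within 1000 bases of a coding gene's start on the other strand occurred in 17 members, of which Gm20186 was called higher and Snhg18 lower. Over all genes 11.5% were called.

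**Figure D4:**
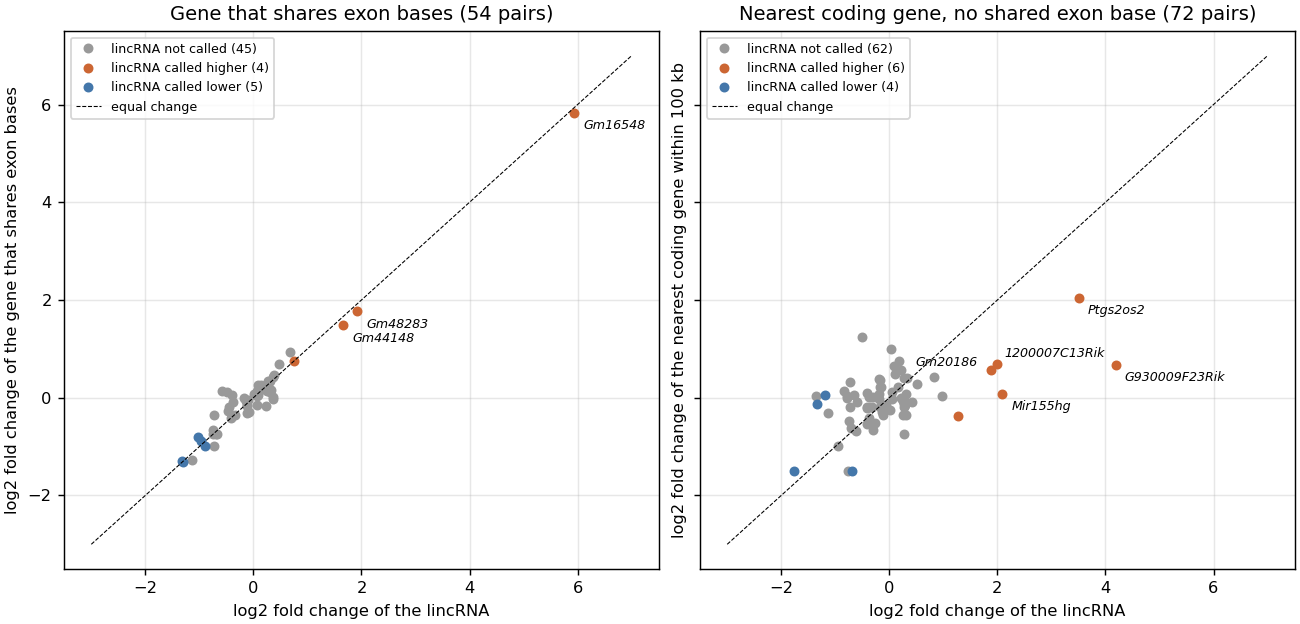
Log2 fold change of each lincRNA (horizontal axis) against that of a gene sharing exon bases (left, 54 pairs) and against that of the nearest coding gene within 100 kb for lincRNAs without shared exon bases (right, 72 pairs), with the line of equal change dashed. Pairs on the left lie along the line (r = 0.977), and on the right r was 0.53 and Ptgs2os2 with Ptgs2 is the highest.

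A few members varied more within a group than between groups. Gm47283, on the Y chromosome next to the pseudoautosomal border, was at 34.9, 2.48 and 13.3 CPM in PBS and at 29.4, 23.4 and 8.0 CPM after rmCIRBP. This is a 14.1-fold range within PBS, and its log2 fold change was 0.28 ± 0.78. Gm21887 matches 76.9% of its transcript at 100% identity. Gm6093 was at 1.56, 0.909 and 0.491 CPM in PBS and at 8.63, 0.718 and 6.43 CPM after rmCIRBP, where rmCIRBP 2 was within the PBS range. Its log2 fold change was 2.45 ± 0.82 with an adjusted p of 0.0959, and 2.97 with an adjusted p of 0.00377 without rmCIRBP 2. Gm28901 ranged 7.49-fold within PBS (0.982 to 7.35 CPM) and had a log2 fold change of -0.46 ± 0.60.

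Of the 12 members on the list of nuclear body and chromatin lincRNAs, edgeR called 1, against 11.5% of all genes. That 1 was Mirg, the microRNA host described above, which was lower. The median log2 fold change of the list was -0.16. Higher calls numbered 0, with 0 at an unadjusted p under 0.05 and 0 by DESeq2. Of 18 tested proteins of the nuclear exosome and its adaptors, which degrade many noncoding transcripts, edgeR called 0, against 11.5% of all genes. By edgeR 4 were at an unadjusted p under 0.05, and DESeq2 called 1. Of 14 proteins of nonsense-mediated decay, 1 was called, against the same 11.5%. This was Smg8, a regulator of that pathway's kinase, at 22.2 to 25.1 CPM in PBS and 29.5 to 33.0 CPM after rmCIRBP (log2 fold change 0.44, adjusted p 0.0462).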

How the data were processed

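RNA of 6 libraries was measured, 3 with PBS and 3 with rmCIRBP. The authors deposited raw counts per gene, with reads assigned by featureCounts to genes of GRCm38 (mm10), and they used DESeq2 and R 4.1.2, per the submitters' processing notes. Not given in the sources used here are the aligner, the strand setting, the annotation release and the treatment of reads with several matches. Every count column matched 1 sample title (0 columns unmapped), and 142 of 143 members were found in GENCODE M21, 139 with the same start and end.

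Genes with low counts were removed with filterByExpr, libraries were scaled by TMM, and genes were tested with edgeR 4.0.16 in R 4.3.3 (quasi-likelihood, two-sided, treatment as the single term) over 15801 genes, with Benjamini-Hochberg adjustment at 0.05. CPM used raw library totals, and RPKM the exon lengths of GENCODE M21. Near copies were other transcripts with at least 97% identity over at least 50% of the transcript. A ratio given with a counting interval compares summed reads scaled to library totals.

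The members and the lists were chosen with earlier results of these data known, and the lists were written from general knowledge. The text names up to 12 called members in each direction, the 10 most abundant, up to 4 per lincRNA list and 3 per protein list by smallest p, the 3 most variable at 2 CPM or more, the 2 members inside and 2 lincRNAs outside the minimum, and the nearest tested coding genes within 100 kb. Other genes were named after their values were seen, including those that share exon bases or are near copies.

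On simulated counts for rmCIRBP against PBS over 15801 genes, 200 of them changed, edgeR recovered 54% of 2-fold and 88% of 4-fold changes with 11.25% false among 160 calls. Limma voom (limma 3.58.1) gave 50%, 88% and 9.21%, and DESeq2 1.42.0 gave 69%, 91% and 22.3%. Alternatives were other scalings and filters, DESeq2, limma voom, a robust fit, the replicate number as a block and leaving out libraries.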

Additional observations from a re-analysis of the deposited data

How the results depend on the processing

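None of the 22 called lincRNAs turned direction under the 16 alternatives run. Leaving out 1 library at a time gave 723 to 2144 calls over all genes, 4 to 11 lincRNAs higher and 0 to 17 lower, against 1818, 11 and 11. The count of 0 lower came without PBS 3 (edgeR, with 20 lower at an unadjusted p under 0.05), and that library ended 17 of the 22 calls, against 53.9% of all calls. Without PBS 2, rmCIRBP 1, rmCIRBP 2, rmCIRBP 3 and PBS 1, 15, 14, 9, 10 and 1 of the 22 ended, against 60.6%, 59.9%, 25.9%, 33.3% and 16.6% of all calls. The count of lincRNAs lower was 17 with no filter on low counts and 19 with DESeq2. With PBS 1 and rmCIRBP 2 both left out, chosen after seeing the data, 2802 genes and 18 lincRNAs lower were called. Among lincRNAs with no shared exon base and no near copy, also chosen after seeing the data, 6 were higher and 4 lower. These subsets hold fewer libraries or genes by construction, and the cause of the other shifts was not tested.

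Replicate numbers are shared between the groups, and the deviations of same-numbered libraries from their group means correlated at -0.11, -0.17 and 0.25. With 3 libraries in each group, these values cannot decide whether the numbers pair the samples. With the replicate number as a block, 8 lincRNAs were higher and 3 lower and 12 of the 22 calls ended (54.5%, against 34.3% of all calls), with 1258 genes called in all.

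Sign changes occurred in members that were not called. Neat1 ranged from a log2 fold change of -0.34 to 0.0098 over the fits without 1 library and was at 0.040 with PBS 1 and rmCIRBP 2 left out. Gm39214 ranged from -0.0023 to 0.16 and was at -0.0044 under upper quartile scaling. Gm47283 ranged from -0.22 to 1.40. Gm28901 ranged from -0.94 to 0.35 and was at 0.0088 with limma voom. Gm20939 ranged from -0.18 to 0.29 and was at -0.020 by library size, -0.050 under upper quartile scaling and -0.095 with PBS 1 and rmCIRBP 2 left out. Of the members, 94 lie under 10 CPM, and how level limits detection was not tested.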

Other observations

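Of 165 tested lincRNAs under the minimum sum, 7 were called higher and 5 lower (7.27% in all, against 11.5% of all genes). AW112010, a lincRNA of activated immune cells with 175 reads in all, had 0, 0 and 1 reads in PBS and 37, 15 and 122 reads in rmCIRBP libraries. Gm31522 and Gm11419 each had 1 read over the 3 PBS libraries, against 42, 44 and 41 reads and 44, 40 and 47 reads after rmCIRBP. Gm48427 had 0 reads in PBS and 32, 12 and 30 after rmCIRBP. Of the decreases, Gm49291 had 31, 22 and 21 reads in PBS and 5, 5 and 6 after rmCIRBP. Each of these genes passed the filter on low counts only through the group in which it was higher, so the values are descriptions. All were named after their values were seen.

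Tested genes on the 4 noncoding lists that are not members were also counted. Of 11 small RNA hosts 1 was called higher, and of 7 microRNA hosts 1 was called lower. Of 10 nuclear body and chromatin RNAs 2 were lower, and of 6 inflammation or p53 RNAs 4 were higher. Over all genes tested, 6.74% were called higher and 4.77% lower, and nothing is read from these small counts. Some that were called are given here, chosen after their values were seen. Gm16685 was at 0.0822, 0 and 0 CPM in PBS and at 24.6, 13.1 and 26.9 CPM after rmCIRBP, and it passed the filter only through the latter. Ptgs2os, which lies on the strand opposite Ptgs2, was at 1.40, 1.32 and 1.33 CPM in PBS and at 3.36, 3.02 and 4.00 CPM after rmCIRBP (log2 fold change 1.39, adjusted p 0.0174). Dnm3os, a microRNA host antisense to Dnm3, fell by 1.29 on the log2 scale (adjusted p 0.00746), from 174, 166 and 183 CPM to 88.4, 47.8 and 72.5 CPM. Airn, the antisense RNA of Igf2r, fell by 1.15 (adjusted p 0.0289).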
